A study of Homo sapiens with 9 samples.

Results

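The 10 genes described here are target genes, feedback inhibitors and nuclear effectors of the WNT/beta-catenin pathway: DKK1, LEF1, NKD1, NKD2, AXIN2, TCF7, TCF7L2, RNF43, ZNRF3 and CTNNB1. They were matched by gene name in the deposited table, and all 10 of 10 were found among its 58735 genes. The study sequenced RNA from H1299, an established human lung cancer cell line, in 3 groups of 3 libraries. KO2 and KO1 are 2 monoclonal lines in which BCKDK, the kinase that inhibits the branched-chain ketoacid dehydrogenase complex, was edited with CRISPR. Vector is H1299 transduced with the lentiCRISPR v2 plasmid, labelled wild type. Whether the knockout lines carry the same plasmid is not stated, and no cytokine, drug or WNT protein is named in the labels. Each knockout line is 1 clone, and Vector is not described as clonal. Against Vector, loss of BCKDK and descent from a single cell cannot be told apart. Separate cultures are not mentioned in the labels, so p-values cover the variation among the 3 libraries per group alone, and this may be technical.

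When WNT proteins bind a Frizzled receptor and LRP5 or LRP6, the complex that marks beta-catenin for degradation is held off. Beta-catenin, the product of CTNNB1, then enters the nucleus and binds the factors TCF7, LEF1, TCF7L1 and TCF7L2, which switch from repression to activation. Among the genes turned on are brakes on the pathway itself: the scaffold AXIN2, the Dishevelled-binding proteins NKD1 and NKD2, the ubiquitin ligases RNF43 and ZNRF3, which remove Frizzled from the surface, and the secreted LRP blocker DKK1. R-spondins bound to LGR receptors keep RNF43 and ZNRF3 away from Frizzled. AXIN2 is widely read as a general reporter of the pathway, whereas LEF1, TCF7 and DKK1 depend more on the cell type.

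Depth was 16002212 to 17090445 recovered reads per library. BCKDK itself measured 0.287 to 0.628 FPKM in KO2, 1.67 to 2.06 FPKM in KO1 and 12.9 to 17.5 FPKM in Vector. Replicate 3 of KO2 and replicate 3 of Vector stood apart within their groups. Pairs with either of them had a chi-square of 39.1 to 46.4 per degree of freedom, and the remaining pairs within groups 2.35 to 6.21. Values without these 2 libraries are given where they change a call. The labels call the cells lung adenocarcinoma. Of 7 markers of that type 6 had a mean under 0.5 FPKM over all libraries, among them NKX2-1 and NAPSA, and their sum was 1.69 to 1.72 FPKM in KO2, 0.562 to 0.684 in KO1 and 1.19 to 1.65 in Vector. The sum of 6 epithelial markers was 102 to 121 FPKM in KO2, 426 to 490 in KO1 and 66.8 to 91.9 in Vector. It came almost entirely from KRT8 and KRT18, with CDH1 and EPCAM near 0 in every group. Sums over 4 blood, 3 endothelial and 4 fibroblast markers stayed at or below 0.682 FPKM in every library. The part of the keratin difference in the results below was not tested.

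The 250 bases upstream of the annotated start are shown for DKK1, TCF7 and NKD2, since these genes differed between groups and this stretch lies outside their own exons. They were chosen after the values were seen, come from RefSeq (GRCh38.p14) and run 5′ to 3′ on the strand of the gene. Capitals mark CTTTGA and its reverse complement TCAAAG, the core of the letters that TCF and LEF factors bind.
DKK1, chr10:52314031-52314280, plus strand: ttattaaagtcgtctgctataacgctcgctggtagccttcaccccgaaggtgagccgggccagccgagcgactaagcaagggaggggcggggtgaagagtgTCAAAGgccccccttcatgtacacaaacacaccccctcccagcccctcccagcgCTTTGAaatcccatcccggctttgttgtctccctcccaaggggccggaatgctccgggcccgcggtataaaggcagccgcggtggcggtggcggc
TCF7, internal start, chr5:134123368-134123617, plus strand: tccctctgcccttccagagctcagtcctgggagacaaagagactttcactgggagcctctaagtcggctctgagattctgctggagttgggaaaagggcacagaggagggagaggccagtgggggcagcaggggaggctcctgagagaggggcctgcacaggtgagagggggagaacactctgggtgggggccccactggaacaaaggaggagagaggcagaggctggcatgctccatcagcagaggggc
NKD2, chr5:1008552-1008801, plus strand: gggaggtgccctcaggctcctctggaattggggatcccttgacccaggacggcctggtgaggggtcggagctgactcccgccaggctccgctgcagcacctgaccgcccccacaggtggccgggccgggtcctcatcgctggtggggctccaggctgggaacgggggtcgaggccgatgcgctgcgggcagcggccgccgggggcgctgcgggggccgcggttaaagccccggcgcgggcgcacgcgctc

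The DKK1 window held the 6 letters 149 and 95 bases upstream of the start, once on each strand. Windows of 300 bases, with 50 bases past the start, were found for 7 of the 10 genes, 11 windows in all. The longer CTTTGAT, searched on either strand, was in 0 of these 11, and in 2.62% of all 35116 promoter windows. The shorter CTTTGA, which every CTTTGAT contains and which was searched after DKK1 had been looked at, was in 1 of the 11, the DKK1 window, and in 12.9% of all windows. A match describes letters and is no binding site.

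The genes differed widely in level. In Vector, CTNNB1 stood highest at 24.8 ± 1.73 FPKM (SD, n = 3), followed by TCF7L2 at 4.67 ± 0.153 FPKM. DKK1 (1.74 ± 0.374), LEF1 (1.52 ± 0.145) and ZNRF3 (1.33 ± 0.371) came next in FPKM and did not separate beyond their spread. NKD2 (0.999 ± 0.353), TCF7 (0.764 ± 0.206) and AXIN2 (0.63 ± 0.128) overlapped likewise. RNF43 and NKD1 were close to 0. The order among the middle genes differed between the lines: DKK1 (3.58 ± 0.83) and TCF7 (2.15 ± 0.203) came directly after CTNNB1 and TCF7L2 in KO2, whereas in KO1 LEF1 (5.17 ± 0.357) lay beside TCF7L2 (5.43 ± 0.283), and DKK1 (0.324 ± 0.0911) ranked below TCF7 (0.406 ± 0.051).

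**Figure D1:**
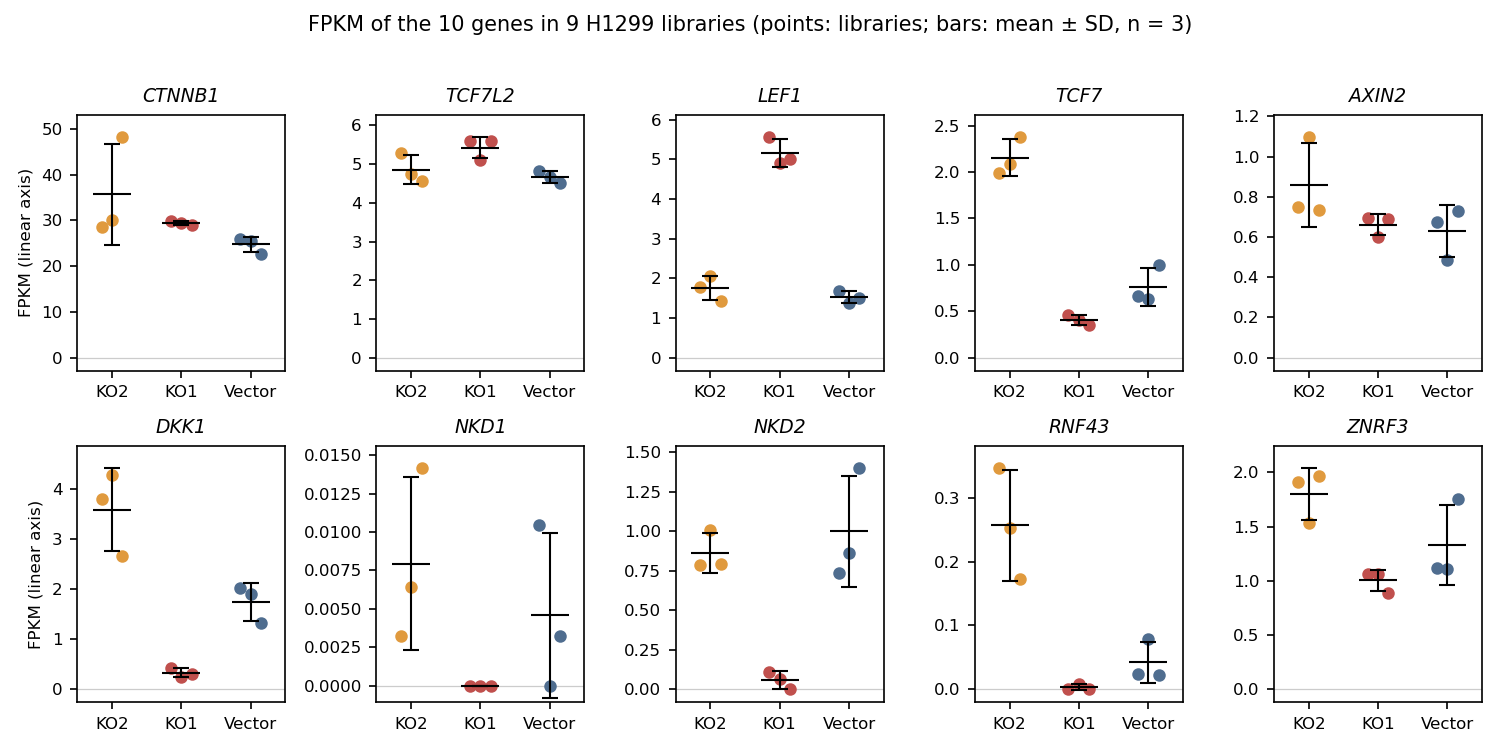
FPKM of the 10 genes on linear axes in the 3 libraries of KO2, KO1 and Vector; points are libraries and bars are means ± SD (n = 3). DKK1, TCF7 and RNF43 are highest in KO2 and lowest in KO1, LEF1 is highest in KO1, and KO2 replicate 3 lies far above the other CTNNB1 values at 48.3 FPKM.

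A mean of at least 0.5 FPKM was required for testing, which 8 of the 10 genes reached; NKD1 and RNF43 did not. In KO2 against Vector, 2 of the 8 rose, 0 fell and 6 did not pass. Over all 16426 fitted genes 12.9% rose and 15% fell in that comparison, 27.9% together. In KO1 against Vector, 1 of the 8 rose, 2 fell and 5 did not pass, against 17.4% and 16.7% of all genes, 34.1% together. In KO2 against KO1, 4 were higher, 1 was lower and 3 did not pass, against 14.5% and 16.4% of all genes, 30.9% together. The balance of all calls depended on the scaling: 51.1% of the calls in KO1 against Vector were upward, and 38.9% after rescaling each library to the same FPKM total (TPM). In KO2 against KO1 these shares were 47% and 61.6%. The calls for the 8 genes kept their directions under TPM. The median difference in log2(FPKM + 1) over the 8 genes was 0.23 in KO2 against Vector, -0.087 in KO1 against Vector and 0.35 in KO2 against KO1, beside medians near 0 over all genes (-0.0049, 0.0083 and -0.017). The libraries of the groups did not overlap for 4 of the 8 genes in KO2 against Vector (4 higher, 0 lower), beside 39% of all fitted genes (18.3% higher, 20.7% lower). They did not overlap for 7 in KO1 against Vector (3 higher, 4 lower), beside 50.1% (26% and 24.1%), and for 6 in KO2 against KO1 (5 higher, 1 lower), beside 53.6% (24.8% and 28.8%). Both clones are set against the same 3 Vector libraries, so the comparisons with Vector are not independent.

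**Figure D2:**
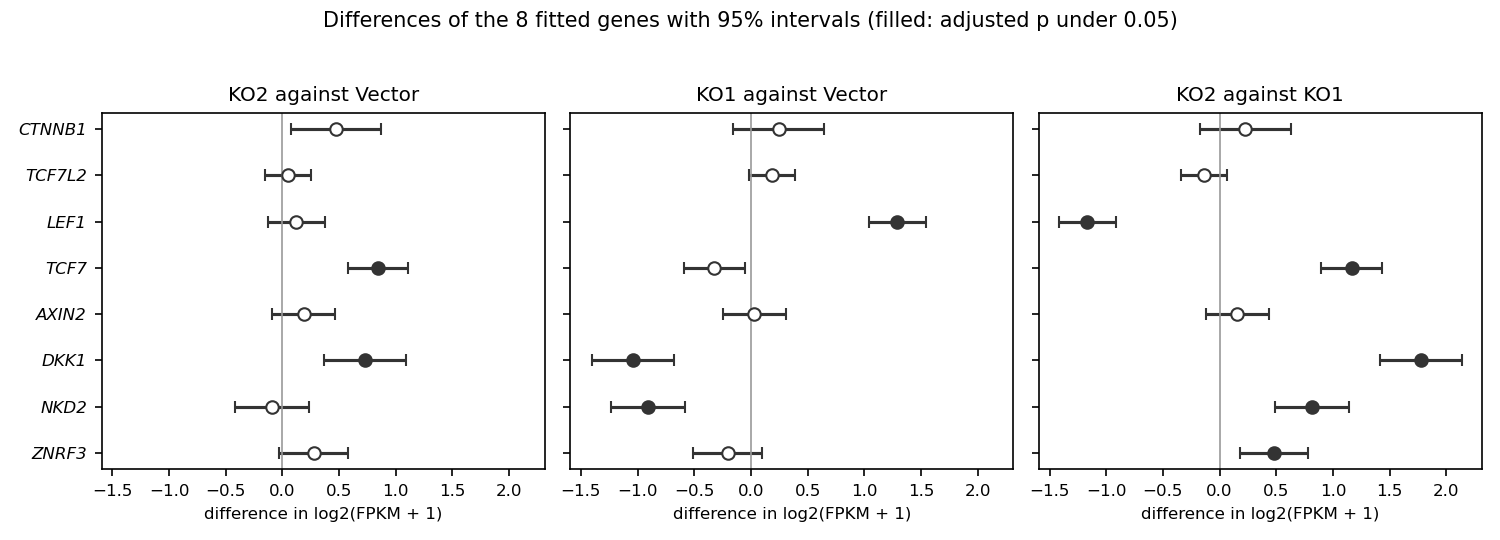
Differences in log2(FPKM + 1) of the 8 fitted genes with 95% intervals from limma, for KO2 against Vector, KO1 against Vector and KO2 against KO1; filled points passed an adjusted p of 0.05. DKK1 lies at 0.73 in KO2 and -1.04 in KO1, LEF1 passed in KO1 (1.29) and TCF7 in KO2 (0.84), the TCF7 interval in KO1 lies below 0 without passing after adjustment, and AXIN2 and TCF7L2 stay within 0.19 of 0 against Vector.

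CTNNB1 and TCF7L2, the most abundant of the 10, passed in none of the 3 comparisons. CTNNB1 (ENSG00000168036, chromosome 3, 41194741 to 41260096, plus strand of hg38) measured 28.6, 30.2 and 48.3 FPKM in KO2, 29.8, 29.5 and 29.1 FPKM in KO1 and 26, 25.5 and 22.8 FPKM in Vector. All 6 knockout libraries lay above all 3 Vector libraries, and KO2 replicate 3 was far above the rest. The difference was 0.47 in KO2 (SE 0.18, limma adjusted p = 0.0768) and 0.24 in KO1 (SE 0.18, limma adjusted p = 0.322), so neither passed. CTNNB1 in KO2 passed with limma-voom on the recovered reads (0.49, adjusted p = 0.0449) and under TPM (0.51, adjusted p = 0.0357). Without KO2 replicate 3 and Vector replicate 3 the values were smaller and passed in both clones: 0.18 in KO2 (limma adjusted p = 0.018) and 0.19 in KO1 (limma adjusted p = 0.00957). Genes within 5 Mb of CTNNB1 had a median of 0.16 in KO2 and 0.27 in KO1, and with that subtracted the KO1 value was -0.029.

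TCF7L2 (ENSG00000148737, chromosome 10, 112950250 to 113167678, plus strand) is the TCF factor best known from intestine and endocrine pancreas. It measured 5.29, 4.74 and 4.56 FPKM in KO2, 5.59, 5.1 and 5.59 FPKM in KO1 and 4.82, 4.67 and 4.51 FPKM in Vector. KO2 overlapped Vector, and KO1 lay just above it. The differences of 0.047 in KO2 (95% interval -0.16 to 0.25) and 0.18 in KO1 (-0.022 to 0.38) did not pass (limma adjusted p = 0.736 and 0.151). Its neighbours within 5 Mb had medians of -0.25 in KO2 and -0.27 in KO1, and with those subtracted the KO1 value was 0.45 and passed (limma adjusted p = 0.0138).

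LEF1 and TCF7, the other factors of this family among the 10, each passed against Vector in 1 clone, LEF1 in KO1 and TCF7 in KO2. LEF1 (ENSG00000138795, chromosome 4, 108047545 to 108168956, minus strand) is known from lymphocytes, hair follicles and invasive tumour cells. It measured 1.77, 2.06 and 1.44 FPKM in KO2, 5.58, 4.91 and 5.02 FPKM in KO1 and 1.68, 1.39 and 1.51 FPKM in Vector. The KO1 libraries all lay far above the rest, and KO2 overlapped Vector. LEF1 rose 3.39-fold in KO1 in mean FPKM (log2 difference 1.29, SE 0.11, limma adjusted p = 3.92e-05). In KO2 the difference was 0.12 (95% interval -0.13 to 0.38, limma adjusted p = 0.451) and passed with library weights (0.29, adjusted p = 0.00631). KO2 was lower than KO1 by a tested difference of -1.17 (limma adjusted p = 9.85e-05). Read support was 491 in KO2, 1360 in KO1 and 416 in Vector. The antisense LEF1-AS1, which shares 5.2% of the LEF1 exon bases, had 14, 16 and 8 reads in KO2, KO1 and Vector.

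TCF7 (ENSG00000081059, chromosome 5, 134114711 to 134151865, plus strand), the factor first known from T cells, measured 1.99, 2.09 and 2.38 FPKM in KO2, 0.455, 0.409 and 0.353 FPKM in KO1 and 0.664, 0.628 and 1 FPKM in Vector. The 3 groups did not overlap, with KO2 above Vector and KO1 below it. TCF7 rose 2.82-fold in KO2 in mean FPKM (log2 difference 0.84, SE 0.12, limma adjusted p = 0.00098). In KO1 the difference of -0.32 (SE 0.12) missed the threshold (limma adjusted p = 0.0639) but passed on the recovered reads with limma-voom (-0.89, adjusted p = 0.00835), and under TPM (-0.65, adjusted p = 0.0289). KO2 exceeded KO1 by 1.16 (limma adjusted p = 0.000142). The ubiquitin ligase subunit gene SKP1 on the opposite strand shares 2.09% of the TCF7 exon bases. SKP1 had 6317, 6756 and 6396 reads in KO2, KO1 and Vector, against 1119, 200 and 394 for TCF7, and the strand setting of the counting is not given in the sources used here. TCF7 and LEF1 also have internal starts that give short forms without the beta-catenin binding region, and values per gene do not separate these forms.

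AXIN2 (ENSG00000168646, chromosome 17, 65528563 to 65561647, minus strand), the scaffold that limits beta-catenin, was low in every group. It measured 0.747, 1.1 and 0.733 FPKM in KO2, 0.695, 0.6 and 0.691 FPKM in KO1 and 0.674, 0.486 and 0.73 FPKM in Vector. KO2 lay above Vector by a narrow margin, and KO1 overlapped it. The differences were 0.19 in KO2 (95% interval -0.092 to 0.47, limma adjusted p = 0.294) and 0.031 in KO1 (-0.25 to 0.31, limma adjusted p = 0.874). With library weights AXIN2 passed in KO2 (0.40, adjusted p = 0.00506) and between KO2 and KO1 (0.29, adjusted p = 0.0219). Limma-voom on the recovered reads gave 0.44 in KO2, which did not pass (adjusted p = 0.189). These values rest on 234, 170 and 168 reads in KO2, KO1 and Vector. A protein-coding read-through model on the same strand, AC004805.1, shares 25.2% of the AXIN2 exon bases and had 1, 0 and 0 reads. How reads in shared exons were assigned is not given in the sources used here, so the AXIN2 level is uncertain.

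DKK1 differed in opposite directions in the clones. The gene (ENSG00000107984, chromosome 10, 52314296 to 52318042, plus strand) encodes the secreted protein that occupies LRP5 and LRP6. It measured 3.8, 4.27 and 2.66 FPKM in KO2, 0.426, 0.251 and 0.295 FPKM in KO1 and 2.01, 1.9 and 1.32 FPKM in Vector. The groups were fully separated, with KO2 above and KO1 below Vector. DKK1 rose 2.05-fold in KO2 in mean FPKM (log2 difference 0.73, SE 0.16, limma adjusted p = 0.00922) and fell to 0.186 of the Vector mean in KO1 (-1.04, SE 0.16, limma adjusted p = 0.00118). KO2 was 11-fold above KO1 in mean FPKM (log2 difference 1.78, limma adjusted p = 7.12e-05). The pseudocount shrinks values of low genes: limma-voom on the 412, 35 and 195 recovered reads of KO2, KO1 and Vector gave -2.39 for KO1 against Vector and 3.43 for KO2 against KO1. Without KO2 replicate 3 and Vector replicate 3 the differences of DKK1 were 0.77 in KO2 and -1.16 in KO1, and both passed. Genes within 5 Mb had medians of -0.22 in KO2 and 0.04 in KO1, in neither case in the direction of DKK1.

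NKD2 and NKD1 encode membrane-linked proteins that bind Dishevelled. NKD2 (ENSG00000145506, chromosome 5, 1008829 to 1038943, plus strand) measured 0.785, 1.01 and 0.792 FPKM in KO2, 0.109, 0.0639 and 0 FPKM in KO1 and 0.737, 0.86 and 1.4 FPKM in Vector. KO1 lay below every other library, and KO2 fell within the Vector range. NKD2 fell to 0.0576 of the Vector mean in KO1 (log2 difference -0.91, SE 0.15, limma adjusted p = 0.00144), with 8 reads in KO1 against 148 in Vector. On those reads limma-voom gave -4.46 (adjusted p = 0.000308). The KO1 library at 0 reads allows up to 0.0615 FPKM, taking 3 reads as the limit for counting error. In KO2, with 129 reads, the difference was -0.091 (95% interval -0.42 to 0.24, limma adjusted p = 0.678), and KO2 exceeded KO1 by 0.81 (limma adjusted p = 0.00288). NKD1 (ENSG00000140807, chromosome 16, 50548330 to 50649249, plus strand) had 7 reads in KO2, 0 in KO1 and 4 in Vector over all 3 libraries of each. The 0 reads of NKD1 in KO1 allow 0.0102 to 0.0108 FPKM per library, and with no filter on low values NKD1 did not pass between KO2 and KO1 (0.011, limma adjusted p = 0.703). Limma-voom without a filter, added after the values were seen, passed NKD1 between KO2 and KO1 (adjusted p = 0.0262) and in neither clone against Vector (adjusted p = 0.545 in KO2 and 0.175 in KO1). That call rests on 7 reads in KO2 against 0 in KO1, and its fitted fold depends on the prior count.

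The ligases RNF43 and ZNRF3, paralogs with the same action on Frizzled, were both lowest in KO1 and highest in KO2. RNF43 (ENSG00000108375, chromosome 17, 58352500 to 58417595, minus strand) measured 0.347, 0.253 and 0.173 FPKM in KO2, 0, 0.00819 and 0 FPKM in KO1 and 0.0243, 0.0787 and 0.0227 FPKM in Vector. These are 46, 34 and 21 reads in KO2, 0, 1 and 0 in KO1 and 3, 10 and 3 in Vector, and the groups did not overlap. RNF43 was too low for the test as set. With no filter on low values its difference was 0.27 in KO2 (limma adjusted p = 0.0113) and -0.055 in KO1 (limma adjusted p = 0.556), while KO2 against KO1 gave 0.32 (limma adjusted p = 0.00478). The pseudocount shrinks these differences: mean FPKM in KO2 was 6.14 times that of Vector, and in KO1 0.0652 of it. Limma-voom without a filter, added after the values were seen, passed RNF43 in both clones (2.68 with adjusted p = 0.00245 in KO2, and -2.75 with adjusted p = 0.00739 in KO1). The KO1 value rests on 1 read against 16 in Vector, and its fitted fold depends on the prior count. The read-through model AC004687.2, which covers 57.6% of the RNF43 exon bases on the same strand, had 18, 9 and 7 reads in KO2, KO1 and Vector. How reads in shared exons were assigned is not given in the sources used here, so the RNF43 level is uncertain.

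ZNRF3 (ENSG00000183579, chromosome 22, 28883592 to 29057487, plus strand) measured 1.91, 1.53 and 1.97 FPKM in KO2, 1.06, 1.06 and 0.892 FPKM in KO1 and 1.12, 1.11 and 1.76 FPKM in Vector. Vector replicate 3 lay inside the KO2 range and the other Vector libraries just above KO1. Against Vector neither difference passed (0.28 in KO2, limma adjusted p = 0.158; -0.21 in KO1, limma adjusted p = 0.268). KO2 exceeded KO1 by 0.48 (SE 0.13, limma adjusted p = 0.0236), a call that was lost in 5 of 9 fits with 1 library left out (highest adjusted p = 0.0819). Without KO2 replicate 3 and Vector replicate 3 it passed in KO2 against Vector (0.36, limma adjusted p = 0.0308). The neighbours' medians differed by 0.27 between KO2 and KO1, and with them subtracted the difference of ZNRF3 between the clones was 0.21 and did not pass (limma adjusted p = 0.189).

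The profiles of the 4 genes that passed against Vector with a difference of at least 0.5 were set against those of 6917 other protein-coding genes averaging 5 FPKM or more. Likeness was the root mean square difference of log2(FPKM + 1) over the 9 libraries, each gene centred on its own mean. For DKK1, whose own spread was 0.75, the nearest were TFPI2 at 0.089, TP53INP1 at 0.16 and AK4 at 0.22. TFPI2, a secreted protease inhibitor, averaged 28.7 FPKM in KO2, 8.01 in KO1 and 16.9 in Vector. For LEF1, with a spread of 0.59, they were HJURP (0.11), TNFRSF10D (0.12) and FHL2 (0.13), and FHL2, a LIM-domain cofactor, averaged 10.2 FPKM in KO2, 20.8 in KO1 and 9.11 in Vector. TCF7 (spread 0.5) was nearest to KLF13 (0.089), IL27RA (0.099) and MLEC (0.12), and NKD2 (spread 0.43) to H6PD (0.10), FBXO6 (0.10) and SSH1 (0.11). The pseudocount shrinks differences of low genes more than those of genes at 5 FPKM or more, so likeness here is not likeness in fold. DKK1 was 11-fold higher in KO2 than in KO1, a wider gap than that of TFPI2. NKD2 fell in KO1 to 0.0576 of the Vector mean, while H6PD averaged 5.67 FPKM in KO1 and 12.6 in Vector.

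Beyond these genes, 8 lists held 91 further genes of the pathway, of which 54 were fitted. These totals count each gene once. In the counts of single lists a gene on more than 1 list, such as FZD7, counts under each. In KO2 against Vector 19 rose and 6 fell, and in KO1 against Vector 13 rose and 11 fell. In KO2 against KO1 17 were higher and 8 lower. These calls are 46.3%, 44.4% and 46.3% of the 54 genes, beside 27.9%, 34.1% and 30.9% of all fitted genes. The counts of the single lists below stand beside the same background: 12.9% of all genes rose and 15% fell in KO2, and 17.4% rose and 16.7% fell in KO1. Among WNT ligands 6 of 19 were fitted, of which 2 rose and 3 fell in KO2, and 0 rose and 5 fell in KO1. These are 5 of 6 called in each clone, beside 27.9% of all genes in KO2 and 34.1% in KO1. WNT9A rose in KO2 (4.3 ± 0.742 FPKM, against 0.899 ± 0.318 in Vector; log2 difference 1.48, limma adjusted p = 0.000175). WNT16 rose in KO2 (4.3 ± 0.391 FPKM) and fell in KO1 (0.822 ± 0.098 FPKM), against 2.07 ± 0.284 FPKM in Vector (log2 differences 0.79 and -0.75). WNT5B, a ligand mostly tied to beta-catenin-independent signalling, fell in both clones (-1.04 in KO2 and -0.71 in KO1), and WNT10B fell in KO1 (-0.8). WNT3 (-0.65 in KO2 and -0.53 in KO1) and WNT2B (-0.43 in KO2 and -0.6 in KO1) fell in both clones as well. For ligand release, WLS, the carrier of WNT proteins to the surface, rose in both clones (0.44 in KO2 and 0.53 in KO1). PORCN, which acylates WNT proteins, fell in KO1 (-0.38, limma adjusted p = 0.0354). That PORCN call was lost with the neighbours' median subtracted (0.04) and in 6 of 9 fits with 1 library left out.

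Of 16 receptors and co-receptors 13 were fitted. In each of KO2 and KO1 5 rose and 0 fell, and the median difference was 0.39 in KO2 and 0.12 in KO1, beside -0.0049 and 0.0083 over all genes. The 5 of 13 called in each clone stand beside 27.9% of all genes in KO2 and 34.1% in KO1. The 3 genes below the limit for testing were FZD9, ROR2 and FZD10, and FZD10 was at 0 throughout. FZD9 was lower in KO1 (0 to 0.134 FPKM) than in Vector (0.531 to 1.24 FPKM), with KO2 between (0.191 to 0.608 FPKM). ROR2 averaged 0.179 FPKM in KO2, 0.00339 in KO1 and 0.0704 in Vector. FZD7 rose to 20.9 ± 1.09 FPKM in KO2 and 8.08 ± 0.284 FPKM in KO1, against 5.29 ± 0.984 FPKM in Vector (log2 differences 1.81 and 0.54). The KO1 call for FZD7 was lost with the neighbours' median subtracted (0.36, limma adjusted p = 0.144). FZD8 rose to 3.56 ± 0.676 FPKM in KO2 and 7.84 ± 0.622 FPKM in KO1, against 1.4 ± 0.473 FPKM in Vector (0.93 and 1.9). LRP6, the co-receptor that DKK1 blocks, rose in both clones as well (0.46 in KO2 and 0.77 in KO1). Of 12 secreted antagonists other than DKK1 only SFRP1 and DKK3 were fitted. NOTUM, also on the list of other target genes, was below the limit for testing. It measured 0.573 to 1.39 FPKM in KO2, 0.274 to 0.332 in KO1 and 0.0783 to 0.151 in Vector, without overlap. WIF1, below the limit too, was highest in Vector (0.231 to 0.474 FPKM), against 0.104 to 0.287 in KO2 and 0.0265 to 0.104 in KO1. SFRP1, which binds WNT proteins outside the cell, rose to 15.7 ± 1.23 FPKM in KO2 and 6.67 ± 0.539 FPKM in KO1, against 3.18 ± 0.0984 FPKM in Vector (2 and 0.87). DKK3 fell in KO1 (-0.65, limma adjusted p = 0.00115) and had a value of -0.055 in KO2 that did not pass.

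The R-spondin side, which counters RNF43 and ZNRF3, showed the largest difference between the clones among the 54 genes. LGR4, an R-spondin receptor, measured 8.84, 9.55 and 10.3 FPKM in KO2, 0.277, 0.349 and 0.411 FPKM in KO1 and 5.7, 5.6 and 3.72 FPKM in Vector. The 3 groups did not overlap: LGR4 rose in KO2 (log2 difference 0.83, limma adjusted p = 0.00276) and fell in KO1 (-2.14, limma adjusted p = 8.21e-06), a difference of 2.97 between the clones. RSPO4, the R-spondin that was fitted, fell in KO1 to 0.0602 ± 0.0352 FPKM, against 1.86 ± 0.361 FPKM in Vector (-1.43), and stood at 1.19 ± 0.182 FPKM in KO2 (-0.38, limma adjusted p = 0.0511). The other 5 of the 7 genes of this list were below the limit for testing.

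**Figure D3:**
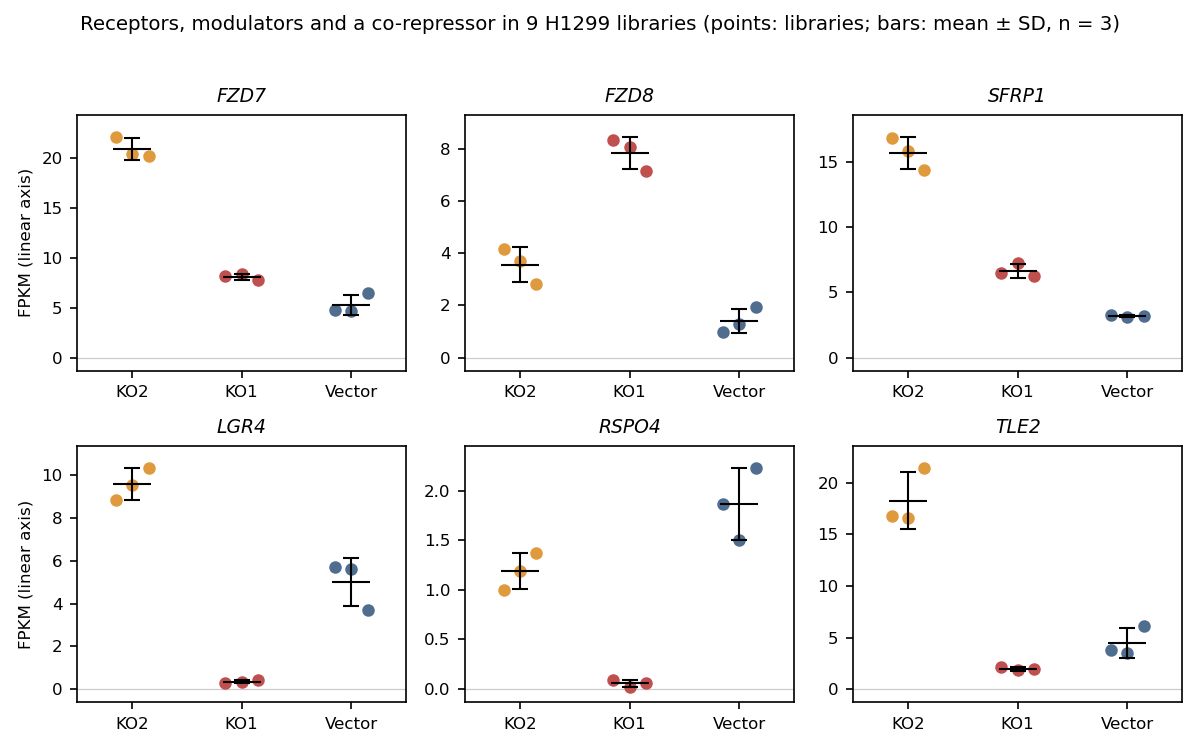
FPKM on linear axes of FZD7, FZD8, SFRP1, LGR4, RSPO4 and TLE2 in the libraries of KO2, KO1 and Vector; points are libraries and bars are means ± SD (n = 3). LGR4 and TLE2 are highest in KO2 and lowest in KO1, as DKK1 is, FZD8 is highest in KO1, and FZD7 and SFRP1 are above Vector in both clones.

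Inside the cell, 13 genes of the destruction complex and Dishevelled were all fitted, of which 2 rose and 1 fell in KO2, and 2 rose and 0 fell in KO1. The 3 of 13 called in KO2 and 2 of 13 in KO1 are smaller shares than the 27.9% and 34.1% of all genes. GSK3A, which encodes a kinase that phosphorylates beta-catenin, fell in KO2 to 14.6 ± 2.31 FPKM, against 34.2 ± 6.07 FPKM in Vector (-1.17, limma adjusted p = 0.000602). APC rose in KO2 (0.61, limma adjusted p = 0.0221), and its level in KO2 replicate 3, 7.5 FPKM, was the highest of the 9 libraries. Without that library the APC difference was 0.41. The call was lost without Vector replicate 1 (limma adjusted p = 0.0598) and in the fit of 6 libraries (limma adjusted p = 0.0623). DVL1 rose in KO1 (0.77, limma adjusted p = 0.0346), a call lost in 11 of 22 other settings, with 43.3 FPKM in Vector replicate 3, against 21.5 and 20.8 FPKM in the other Vector libraries. In KO2 DVL1 did not pass (0.049, limma adjusted p = 0.901). That KO2 value newly passed in 3 of 22 other settings and changed sign in 3, and it was 0.38 without Vector replicate 3. Of 10 nuclear partners 3 rose and 1 fell in KO2, and 2 rose and 2 fell in KO1. The 4 of 10 called in each clone lie near the 27.9% of all genes in KO2 and 34.1% in KO1. The co-repressor TLE2 rose to 18.3 ± 2.74 FPKM in KO2 and fell to 1.98 ± 0.181 FPKM in KO1, against 4.48 ± 1.46 FPKM in Vector (log2 differences 1.84 and -0.85). TLE4, a paralog, rose in both clones (0.84 and 0.36), and the co-activator PYGO1 fell in both (-0.42 and -0.67). The calls of TLE4 in KO1 and of PYGO1 in KO2 were each lost in 6 of 9 fits with 1 library left out.

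Of 15 other target genes 7 were fitted, of which 5 rose and 1 fell in KO2, and 3 rose and 0 fell in KO1. The 6 of 7 called in KO2 and 3 of 7 in KO1 stand beside 27.9% and 34.1% of all genes. SOX9, a transcription factor of progenitor cells, rose to 66 ± 3.68 FPKM in KO2 and 138 ± 5.12 FPKM in KO1, against 30.6 ± 1.33 FPKM in Vector (1.08 and 2.14). BMP4, a signalling protein of another family, rose in KO2 (3.55 ± 0.657 FPKM, against 0.231 ± 0.0914 in Vector; log2 difference 1.88). CCND1, cyclin D1, rose in both clones (0.64 and 0.87), while MYC fell in KO2 (-1.06, limma adjusted p = 0.0107) and had a value of -0.58 in KO1 that did not pass. MYC measured 53.6, 50.9 and 26.1 FPKM in KO2, and without KO2 replicate 3 the difference was -0.73 and still passed. The KO1 libraries (54.7 to 63.5 FPKM) all lay below the Vector libraries (79.4 to 97.4 FPKM). The KO1 value of MYC passed in 7 of 22 other settings. SP5, which responds to beta-catenin in many cell types, had values of 0.13 in KO2 and -0.024 in KO1 and passed in neither. NOTUM, a target that was not fitted, is given above with the antagonists and was higher in both clones than in Vector.

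**Figure D4:**
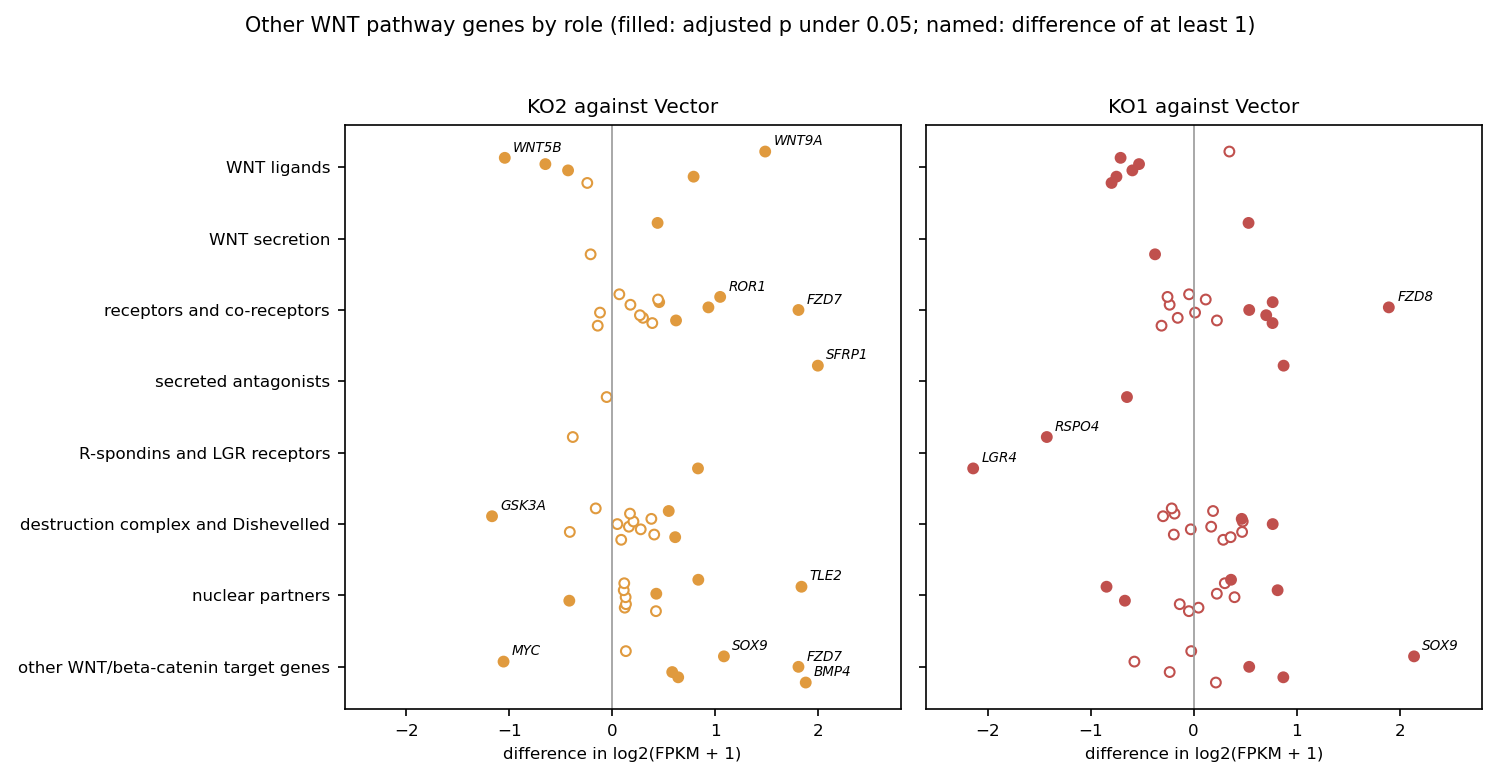
Differences in log2(FPKM + 1) of the fitted genes of 8 further lists, by role, for KO2 against Vector and KO1 against Vector; filled points passed an adjusted p of 0.05, and names mark those of at least 1. LGR4, on the list of R-spondins and LGR receptors, lies at -2.14 in KO1 and 0.83 in KO2. On the separate list of receptors and co-receptors no fitted gene passed below 0 in either clone. FZD9, lower in KO1 than in Vector, was not fitted and is not drawn.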

How the data were processed

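RNA sequencing of 9 H1299 libraries was deposited by the authors as 1 table of FPKM, reads scaled for exon length and by a factor per library. That factor matched the median-of-ratios size factor of the recovered reads (ratio 1 in each of the 9 libraries) and not the read total. CASAVA 1.6, HISAT2 2.0.5, featureCounts 1.5.0-p3 and hg38 are named in the submitters' processing notes, without roles; the strand setting is not given in the sources used here. GENCODE 29 held each of the 58735 identifiers. Multiplying FPKM by merged exon length recovered whole reads for 100% of non-zero values (tolerance 0.02 reads).

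Values were taken as log2(FPKM + 1). Genes averaging 0.5 FPKM or more (16426) were fitted with limma 3.58.1 (R 4.3.3; trended empirical Bayes, all 9 libraries, group as the only term). Calls needed p under 0.05 after Benjamini-Hochberg adjustment over all genes of a comparison, and every adjusted p comes from this test unless another setting is named. The procedure was tested on simulated data. The 10 genes, the pathway lists and the named genes (up to 2 rising and 2 falling called genes per list, by size of difference) were chosen with earlier results of these data known. Further genes were named after their values were seen. Same-numbered libraries of different groups were checked for shared deviations. The settings tried concern pseudocount, filter, scaling, test, libraries, neighbouring genes and replicate block. Promoter sequences are from RefSeq (GRCh38.p14).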

Additional observations from a re-analysis of the deposited data

Results flagged for a closer look

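Values were noted for a closer look where the effect differed between the clones by the test of KO2 against KO1, as differences in log2(FPKM + 1). Among the 10 genes these were DKK1 (1.78), LEF1 (-1.17), NKD2 (0.81), TCF7 (1.16) and ZNRF3 (0.48), beside 30.9% of all fitted genes that passed in this comparison. Among the named ligands and modulators they were WNT9A (1.14), WNT10B (0.55), WNT16 (1.54), SFRP1 (1.12), DKK3 (0.59), RSPO4 (1.04) and LGR4 (2.97). Among receptors and intracellular genes they were FZD7 (1.27), FZD8 (-0.96), GSK3A (-0.87), DVL1 (-0.72), TLE2 (2.68) and TLE4 (0.47), and among other targets SOX9 (-1.06) and BMP4 (1.66). The DVL1 call between the clones was lost in 11 of 22 other settings and passed in 3 of 9 fits with 1 library left out. BCKDK differed too (-0.95).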

How the results depend on the processing

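The calls of DKK1 in both clones, of LEF1 and NKD2 in KO1, of TCF7 in KO2 and of these 4 genes between the clones passed in the same direction under every one of the 21 or 22 other settings that could fit them; NKD2 is not fitted at a minimum of 1 FPKM. Over the 8 fitted genes, 481 of 522 values kept direction and side of the threshold, 22 newly passed, 8 (all ZNRF3 in KO2 against KO1) no longer passed and 11 changed sign, none of them a call. The sign changes were AXIN2 in KO1 (-0.0049 under TPM, -0.16 with neighbours subtracted, -0.035 to 0.075 with 1 library left out), CTNNB1 in KO1 (-0.029 with neighbours subtracted) and CTNNB1 between the clones (-0.0052 to 0.36 with 1 library left out, -0.0052 without both replicates 3 of KO2 and Vector). NKD2 in KO2 became 0.071 with library weights, 0.104 with neighbours subtracted, -0.19 to 0.048 with 1 library left out and 0.074 without both; TCF7L2 in KO2 ranged over -0.0049 to 0.084 with 1 library left out. Of 1380 values of the named pathway genes 1281 kept direction and side, 56 no longer passed, 33 newly passed and 10 changed sign: WLS between the clones (0.020 under TPM, 0.13 with quantile normalization), PORCN in KO2 (0.0012 with library weights, 0.16 with neighbours subtracted) and in KO1 (0.044), DKK3 in KO2 (0.013 with library weights), GSK3A in KO1 (0.034 with neighbours subtracted) and DVL1 in KO2 (-0.13 to 0.38 with 1 library left out). Library weights called 6 of the 8 fitted genes in KO2 against Vector, 6 in KO1 against Vector and 6 in KO2 against KO1. Beside these stood 10061, 10779 and 9764 of all 16426 fitted genes. Without both replicates 3, 4 of the 8 were called in KO2, and 8138, 9335 and 7834 of all 16426 genes in KO2, KO1 and KO2 against KO1. Limma-voom without a filter, chosen after seeing the data, called 4 of the 10 in KO2, 5 in KO1 and 7 between the clones. It called 6099, 7407 and 6491 of all genes above 0 in any library. That set is larger than the 16426, because only the 23132 of 58735 genes at 0 in all libraries were left out. The fit of 6 libraries called 2963 genes in KO2 against Vector. Leaving out 1 library gave 3203 to 6531 calls in KO2, 3705 to 7367 in KO1 and 3337 to 6756 between the clones, among 16426 genes. Among the 8 fitted genes it gave 2 to 3, 3 to 4 and 4 to 5 calls. The causes were not tested. Deviations of same-numbered libraries correlated at -0.20 to 0.14, within the -0.26 to 0.25 of differently numbered ones. Deviations within a group sum to 0, so these correlations cannot settle whether the numbers pair libraries. With the replicate block 3953, 4911 and 4428 of the 16426 genes were called and 2, 3 and 5 of the 8. RNF43 and NKD1 are limited by depth.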
